A study of Homo sapiens with 8 samples.

Results

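The comparison set the 4 libraries of an overexpression arm against the 4 libraries of a knockdown arm, which together are all 8 libraries of the series. Both arms were profiled by RNA sequencing in ARP1 and H929, 2 human myeloma lines (myeloma is the malignancy of plasma cells, which secrete antibody). The members were taken from the genotype labels: in each line, the overexpression arm held 1 library of CHEK1 overexpression and 1 of its control, and the knockdown arm held 1 library of CHEK1 knockdown and 1 of its control. The comparison addresses what differed between the arms in both lines. Each arm difference averages the controls with the CHEK1 libraries, so any effect of CHEK1 overexpression against knockdown is part of it. Only the contrast of the controls leaves the altered genotypes out. No label states the means by which CHEK1 was altered, what the controls carried, or whether the arms were grown, extracted or sequenced together. In the arm difference, CHEK1 genotype, vector, culture and handling therefore cannot be told apart. Nothing states that the libraries came from separate cultures, and p-values therefore measure only the spread between these samples.

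Levels are FPKM (fragment counts divided by transcript length and by the size of the library), deposited per transcript and summed here per gene. Differences are on the scale of log2(FPKM + 1), overexpression arm minus knockdown arm, which understates the change of genes at low FPKM. A gene was called at an adjusted p under 0.05 in limma with the line as a block. Each library summed to between 631871 and 693299 FPKM, with 13084 to 14092 genes at 1 FPKM or more. Read depth was unknown. The plasma cell markers, SDC1, IRF4, XBP1 and others, were all tested (10 of 10), with summed levels of 4210 to 5870 FPKM in the overexpression arm and 3190 to 5120 in the knockdown arm. The marker JCHAIN made up much of these sums, at 2590 to 3520 and 1900 to 2690 FPKM. Markers of T and NK cells summed to 1.28 to 14.6 and 0.917 to 2.46 FPKM, and those of myeloid cells to 1.21 to 2.55 and 1.98 to 2.92. Markers of HEK293 cells, in which viral vectors are often packaged, summed to 6.76 to 19.1 and 7.8 to 9.56. The part of these markers in the results was not tested, and in bulk RNA fewer cells of a type and less RNA per cell cannot be told apart.

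Several programmes that recur below have textbook roles. In the nucleolus, RNA polymerase I makes ribosomal RNA, and nucleolar proteins fold, cut and modify it into ribosomes, a process that the transcription factor MYC, paired with MAX, drives in many cancers. ATF4 is a transcription factor that is translated when amino acids run short or proteins misfold, and it raises genes for amino acid synthesis, transport and growth arrest. Plasma cells secrete large amounts of antibody and depend on the chaperones of the endoplasmic reticulum (ER). CHEK1 encodes the checkpoint kinase that restrains the cell cycle when DNA replication stalls.

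In each pair of values that follows, the control comes before the CHEK1 library of the same arm. CHEK1 stood at 78.2 and 114 FPKM in the ARP1 overexpression arm and at 61 and 51.6 in its knockdown arm. In H929 it stood at 81.6 and 107 against 80.7 and 84.8. It was highest in both libraries labelled overexpression, but in H929 the library labelled knockdown was above its control, so the CHEK1 transcript does not check that label. Between arms CHEK1 differed by 0.46 (SE 0.17, adjusted p = 0.17), and by 0.24 once transcripts under 600 nt were left out, neither past the threshold. Between the controls alone it differed by 0.35 in ARP1 and by 0.016 in H929.

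Of 14905 tested genes, 201 (1.35%) differed between the arms, 100 higher (0.671%) and 101 lower (0.678%) in the overexpression arm. Among these, 88 of the higher and 75 of the lower code for protein. At an unadjusted p under 0.05 there were 3280 genes, against 745 for evenly spread p-values. The 201 called genes had the same sign in all 4 pairs of matched libraries (controls and CHEK1 libraries of each line) and no overlap between the arms in either line. That separation comes from the same values that made the call. Here and for the called genes below, it describes them and does not support the call separately. Over all tested genes, 10.5% were higher and 10.6% lower without overlap in both lines, so the lack of overlap alone was common. Adjusted p-values ran from 0.00284 to 0.0498 for the 200th gene, close to the threshold, and the count depended on single libraries: 567 genes passed without the ARP1 CHEK1 knockdown library, and 2 to 24 without any 1 of the other 7.

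Among the sources of spread, the line took 46% of the sum of squares over the tested genes, the arm 16.5%, the CHEK1 library against its control within an arm 29.1%, and line by arm 8.45%. The CHEK1 share pools a separate difference for each line and arm, with the spread between single libraries. The other shares each hold a single difference per gene, so the CHEK1 share cannot be ranked against them. Between the controls alone, in a fit with genotype and line, limma called 8 genes (0.0537%, with 0.0201% higher and 0.0335% lower, and 1600 at an unadjusted p under 0.05), among them WDR74 (1.51, adjusted p = 0.0165). Between the CHEK1 libraries it called none (0%; 3198 at an unadjusted p under 0.05). In ARP1, 764 genes differed 2-fold between the controls of the arms, against 491 between the overexpression library and its control and 1231 between the knockdown library and its control. In H929 the same counts were 649, 407 and 536.

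**Figure D1:**
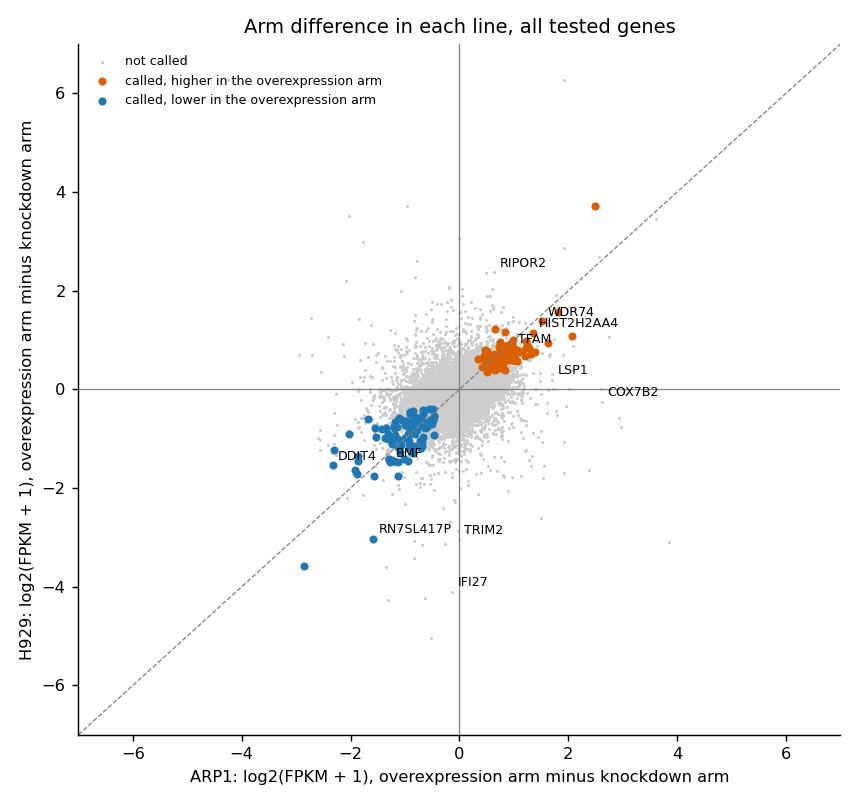
Each point is 1 tested gene, with its log2(FPKM + 1) difference between the arms (overexpression arm minus knockdown arm) in ARP1 on the x axis and in H929 on the y axis, both from 2 libraries per arm. Called genes (orange 100, blue 101) lie in the quadrants where both lines share a sign, while named grey genes such as IFI27, TRIM2 and COX7B2 lie far from the dashed line of equality.

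The ranking named only genes without overlap between the arms in both lines, so that separation was set by the choice of these genes. Of the 15 coding genes ranked first as higher, WDR74 had the largest difference (ENSG00000133316, chromosome 11, 62832342 to 62841809 on the minus strand of GRCh38). Its protein works with the NVL ATPase in the maturation of the large ribosomal subunit. It stood at 664 and 575 FPKM in the ARP1 overexpression arm and at 227 and 202 in its knockdown arm, and in H929 at 668 and 525 against 238 and 215. All 4 overexpression-arm libraries were above all 4 of the knockdown arm. The arms averaged 608 ± 69.7 and 221 ± 15.5 (SD, n = 4), 2.87-fold apart in ARP1 and 2.61-fold in H929, a difference of 1.45 (SE 0.11, adjusted p = 0.00286). WDR74 was called without any 1 of the 8 libraries, with a difference of 1.40 to 1.54, but not between the 4 CHEK1 libraries alone (1.39, adjusted p = 0.404). A short transcript carried most of it: WDR74-208, of 548 nt, stood at 600, 510, 578 and 433 FPKM in the overexpression arm and at 173, 165, 174 and 147 in the knockdown arm. WDR74-201, of 1289 nt, stood at 49, 51, 68.8 and 78.3 against 49.4, 31.4, 52.3 and 61.9. Without transcripts under 600 nt the gene's difference was 0.49 (adjusted p = 0.057). The annotation places the U2 small nuclear RNA copy RNU2-2P at the same end and on the same strand of WDR74, and reads of these genes cannot be told apart here.

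NCL (ENSG00000115053, chromosome 2, 231453531 to 231483641, minus strand) encodes nucleolin, an abundant nucleolar protein that binds nascent ribosomal RNA. It stood at 461 and 508 FPKM against 242 and 174 in ARP1, and at 461 and 541 against 264 and 297 in H929. The arms did not overlap, with 493 ± 39 against 244 ± 51.8 (SD, n = 4) and a difference of 1.03 (SE 0.14, adjusted p = 0.0396). The difference was 0.89 and still called without transcripts under 600 nt, and NCL-201, the transcript of 4034 nt, stood at 260, 299, 252 and 275 FPKM against 173, 110, 182 and 196. Among transcripts, limma did not call NCL-201 (0.74, adjusted p = 0.104) but called NCL-202, of 890 nt (1.72, adjusted p = 0.0218). NOLC1 (ENSG00000166197, chromosome 10), a nucleolar phosphoprotein that carries small nucleolar RNA-protein particles, stood at 207 and 207 against 132 and 89.2 in ARP1, and at 203 and 185 against 111 and 108 in H929 (difference 0.87, SE 0.12, adjusted p = 0.0396). The lowest overexpression-arm library, 185, was above the highest of the knockdown arm, 132. UTP14A (ENSG00000156697, chromosome X), a component of the complex that processes the small-subunit ribosomal RNA, stood at 37.1 and 34.2 against 20.7 and 17 in ARP1, and at 29.3 and 31.5 against 14.5 and 17.3 in H929 (difference 0.89, SE 0.11, adjusted p = 0.0346). WDR75, of the same complex, stood at 64.4 and 56.6 against 34 and 28.3, and at 56.8 and 63 against 29.5 and 31.7, without overlap, but its difference of 0.94 was 0.39 and not called without transcripts under 600 nt. UTP14A and NOLC1 kept their differences there, at 0.89 and 0.87.

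Over the list of MYC targets and ribosome biogenesis genes, 34 were tested, 33 had a positive difference (47.5% of all tested genes had one) and 5 were called higher: WDR74, NCL, NOLC1, NOP56 and ODC1. None was called lower, and the background was 0.671% called higher. Arms did not overlap in both lines for 22 of the 34, all higher in the overexpression arm, against 10.5% of all tested genes. The median difference was 0.48 (all tested genes, -0.017), 0.61 in ARP1 and 0.42 in H929, and it was 0.37 between the controls and 0.67 between the CHEK1 libraries. Among single pairs it was lowest between the ARP1 controls, at 0.31, and highest between the ARP1 CHEK1 libraries, at 0.94. NOP56, a core protein of the box C/D small nucleolar particles, stood at 88.9 and 97 FPKM against 62.6 and 42 in ARP1, and at 98.3 and 100 against 62.2 and 64.7 in H929. ODC1, which makes the polyamine putrescine, stood at 542 and 580 against 406 and 242, and at 554 and 628 against 332 and 377. The one member with a negative difference was FBL, the methyltransferase of the same particles as NOP56, at 39 and 30.6 against 32.4 and 38.3 and at 18.9 and 22.7 against 21.4 and 23 (-0.061, adjusted p = 0.799). MYC itself stood at 634 and 446 against 375 and 591 in ARP1, where the arms overlapped, and at 270 and 267 against 149 and 188 in H929 (0.43, adjusted p = 0.225). Without the ARP1 CHEK1 knockdown library 11 members were called, and without any 1 of the other libraries 1 or 2 were.

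Further nucleolar proteins outside that list, chosen after their values were seen, were called higher. BMS1, a GTPase of small-subunit assembly, stood at 22.1 and 22.6 FPKM against 13.6 and 9.23 in ARP1 and at 18.7 and 19.6 against 11.9 and 11.5 in H929 (0.80). GAR1, a protein of the H/ACA particles that make pseudouridine, stood at 93.6 and 113 against 68.8 and 50.7 and at 121 and 147 against 78 and 87.2 (0.74). DDX21, a nucleolar RNA helicase, stood at 145 and 184 against 113 and 117 and at 156 and 167 against 95.1 and 92.2 (0.64). For each of these genes the arms did not overlap in either line. MAX, also chosen after its values were seen and the partner through which MYC binds DNA, was called higher at 72.7 and 65 against 43 and 35.9 and at 61.7 and 59.8 against 41.6 and 45.5 (0.63, adjusted p = 0.0451). MXD3, chosen likewise, which pairs with MAX in place of MYC, was called lower at 11.9 and 9.97 against 15.6 and 21.1 and at 12.2 and 8.97 against 27.4 and 21.8 (-0.92, adjusted p = 0.0464). The other partners of MAX were not counted and MYC itself was not called, so MAX and MXD3 are described as single genes only.

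MYC and MAX bind the E-box CACGTG, so the 250 bases upstream of the RefSeq start were read for genes that carry or lack this motif. The motif reads the same on both strands. It was found in 9.09% of the tested coding genes with a RefSeq promoter (858 of 9439), in 8.33% of those called higher (6 of 72), in 5.45% of those called lower (3 of 55), and in 5 of the 28 matched members of the ribosome list (17.9%). It was in 6.49% of all promoters of the table. A promoter of each kind is printed: UTP14A, called and with a motif, NCL, called and without one, and CDK4, a cell-cycle kinase, not called and with 3. They lie at chrX:129905914-129906163 (plus strand), chr2:231464485-231464734 (minus strand) and chr12:57752311-57752560 (minus strand) of GRCh38.p14, from RefSeq, 5′ to 3′, with the motif in capitals.
UTP14A: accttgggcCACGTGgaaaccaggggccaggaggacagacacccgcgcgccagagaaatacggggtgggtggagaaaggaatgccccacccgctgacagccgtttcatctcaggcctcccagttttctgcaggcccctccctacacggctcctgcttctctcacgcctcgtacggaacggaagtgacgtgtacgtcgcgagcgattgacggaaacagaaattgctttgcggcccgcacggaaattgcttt
NCL: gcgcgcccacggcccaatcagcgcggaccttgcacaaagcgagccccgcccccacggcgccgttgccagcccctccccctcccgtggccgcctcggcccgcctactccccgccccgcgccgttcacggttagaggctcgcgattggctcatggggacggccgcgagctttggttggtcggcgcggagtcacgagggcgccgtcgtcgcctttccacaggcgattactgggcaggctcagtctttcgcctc
CDK4: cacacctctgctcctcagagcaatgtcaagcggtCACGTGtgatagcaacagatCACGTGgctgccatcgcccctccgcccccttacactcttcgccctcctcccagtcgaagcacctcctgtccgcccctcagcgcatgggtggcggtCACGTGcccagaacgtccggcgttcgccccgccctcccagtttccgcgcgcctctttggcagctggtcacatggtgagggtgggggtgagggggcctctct
A match describes these letters only, and binding was not measured. CDK4 stood at 174 and 136 FPKM against 171 and 143 in ARP1, and at 99.1 and 108 against 90.7 and 106 in H929, with arms that overlapped (0.026, adjusted p = 0.915). APEX1, a DNA repair endonuclease with 3 motifs, differed by 0.18 (adjusted p = 0.357).

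Other coding genes that were higher in the overexpression arm had roles outside the nucleolus. TFAM (ENSG00000108064, chromosome 10), which packages and transcribes mitochondrial DNA, stood at 67.3 and 90.3 FPKM against 36.8 and 41.3 in ARP1, and at 66.5 and 80.6 against 46.5 and 35 in H929. Its arms averaged 76.2 ± 11.4 and 39.9 ± 5.15 (SD, n = 4), a difference of 0.91 (SE 0.14, adjusted p = 0.04). The 13 genes that mitochondrial DNA encodes had negative differences over both lines in all 13 cases (median -0.15), but the lines differed in sign, with a median of -0.43 in ARP1 and 0.033 in H929. Limma called none of them (2 lower at an unadjusted p under 0.05). SRSF3, a splicing factor, stood at 237 and 223 against 145 and 88.1, and at 240 and 235 against 137 and 136 (0.91, adjusted p = 0.0441). Among its transcripts, limma called SRSF3-208, of 869 nt (1.34, adjusted p = 0.0424), but not SRSF3-202, of 4222 nt (0.44, adjusted p = 0.169). MLEC, an ER protein that binds newly attached sugar chains, stood at 105 and 82.9 against 52 and 42.9, and at 97.4 and 90.2 against 50.8 and 51.4 (0.92, adjusted p = 0.0346). For these genes every overexpression-arm library was above every knockdown-arm library. PDCD5, linked to apoptosis, differed by 0.92 and C11orf98 by 1.05, both called. The annotation has C11orf98 overlap LBHD1 on the same strand, and reads of these genes cannot be told apart here. SULT1A1, a sulfotransferase with near-identical paralogs and so uncertain, stood at 8.22 and 12.1 against 5.38 and 4.94 in ARP1 and at 6.39 and 7.14 against 2.41 and 2.52 in H929 (adjusted p = 0.04). FAM98B, of a tRNA-ligase complex, differed by 0.95.

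Part of the higher list rested on short transcripts. RPL38 and RPL37, ribosomal proteins, were called at 0.91 and 0.99, but they differed by 0.18 and 0.23, not called, without transcripts under 600 nt. RPL38-208, of 344 nt, stood at 859, 792, 742 and 575 FPKM in the overexpression arm and at 272, 421, 350 and 269 in the knockdown arm, whereas RPL38-201, of 1170 nt, stood at 90, 100, 99.6 and 114 against 80.5, 84, 94.3 and 97.5. The histone gene HIST2H2AA4, which has a near-identical copy, stood at 599 and 510 against 185 and 249 and at 499 and 603 against 286 and 213 (1.25, adjusted p = 0.0307) and has no transcript of 600 nt or more. FAM98B also lost its call there, at 0.37. MLEC fell from 0.92 to 0.57 there, and limma still called it (adjusted p = 0.039). The share of summed FPKM in transcripts under 300 nt was 2.97% to 4.49% in the overexpression arm and 3.91% to 5.88% in the knockdown arm, and its part in these results was not tested.

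**Figure D2:**
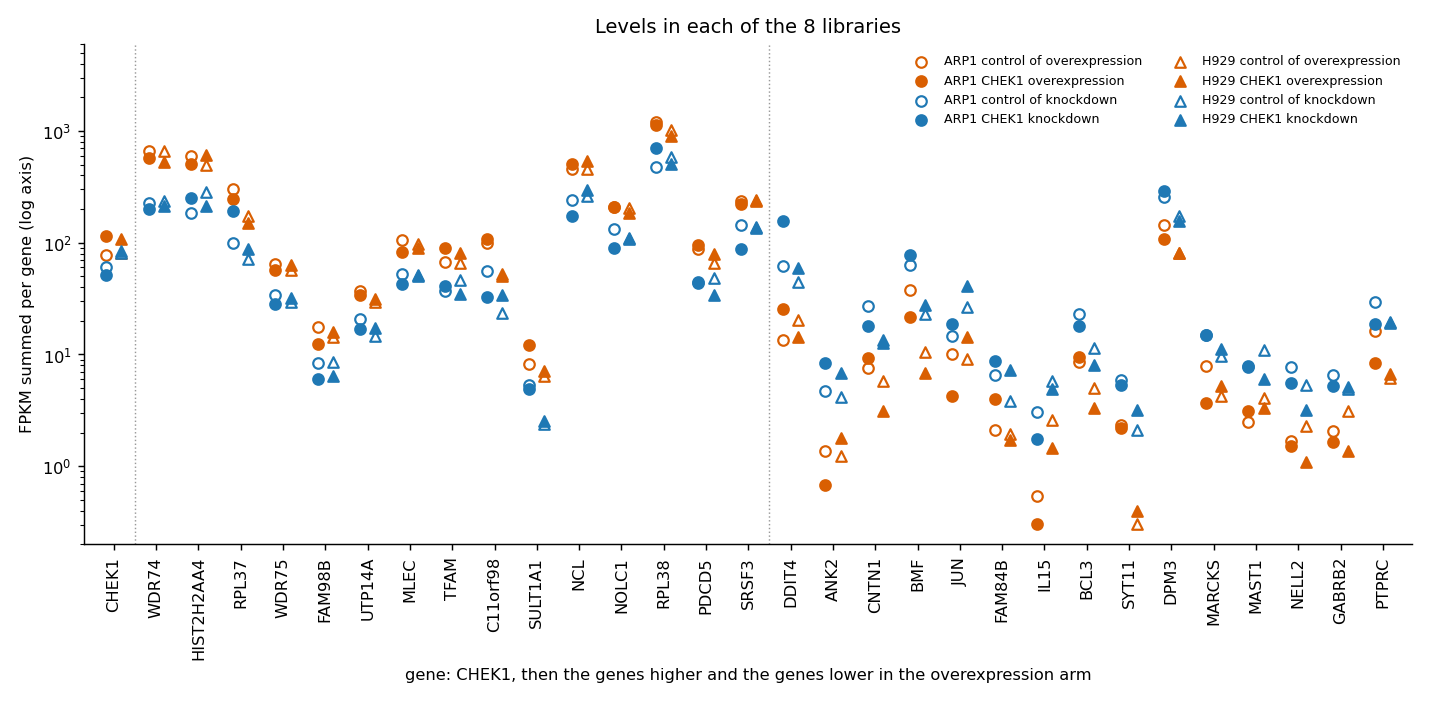
FPKM per library on a log axis for CHEK1 and the coding genes named by the ranking, 15 higher and 15 lower in the overexpression arm. Circles are ARP1, triangles H929, open symbols controls and filled symbols CHEK1 libraries. Orange (overexpression arm) and blue (knockdown arm) points separate within each line for all genes but CHEK1, as the ranking required of the genes it named. For CHEK1 the H929 overexpression control, 81.6 FPKM, lies between the knockdown-arm values of 80.7 and 84.8.

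The largest drop among the coding genes named lower was in DDIT4 (ENSG00000168209, chromosome 10, 72273920 to 72276036, plus strand), also called REDD1, a stress-induced inhibitor of the growth kinase complex mTORC1. DDIT4 stood at 13.4 and 25.6 FPKM in the ARP1 overexpression arm and at 61.4 and 155 in its knockdown arm, and in H929 at 20.3 and 14.4 against 44.7 and 59.6. The controls alone were far apart (-2.11 in ARP1 and -1.10 in H929), with 18.4 ± 5.67 against 80.2 ± 50.5 over the arms (SD, n = 4) and a difference of -1.94 (SE 0.33, adjusted p = 0.0451). DDIT4-AS1, annotated on the opposite strand within the same locus, moved with it at 14.7 and 32.9 against 76.3 and 167 and at 25.9 and 23.9 against 49.3 and 71.7. Whether the libraries kept strand is not stated, so reads of DDIT4 and DDIT4-AS1 cannot be told apart.

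BMF (ENSG00000104081, chromosome 15), a BH3-only protein that promotes apoptosis by binding BCL2 proteins, stood at 37.6 and 21.6 FPKM against 62.9 and 78 in ARP1, and at 10.5 and 6.79 against 22.9 and 27.6 in H929. The arms were apart within each line, though ARP1's overexpression arm overlapped H929's knockdown arm (difference -1.37, SE 0.20, adjusted p = 0.0396). BMF was the 1 called gene of the 19 tested in the list of BCL2 family and apoptosis genes (0.678% of all tested genes were called lower), of which 13 had a negative difference. BCL2 itself stood at 51.1 and 44.8 against 54.4 and 110, and at 22.9 and 13.4 against 32.5 and 24.2, and did not pass (-0.66, adjusted p = 0.154).

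Further genes called lower encode signalling and immune proteins. JUN, an AP-1 transcription factor, stood at 10.1 and 4.24 FPKM against 14.7 and 18.6 in ARP1 and at 9.1 and 14.2 against 26.6 and 41.1 in H929 (-1.33, adjusted p = 0.0496). BCL3, a nuclear IkB protein, stood at 8.52 and 9.5 against 22.9 and 18.1 and at 4.96 and 3.31 against 11.4 and 7.97 (-1.07, adjusted p = 0.0396). PTPRC, the surface phosphatase CD45, stood at 16.1 and 8.42 against 29.6 and 18.6 and at 6.22 and 6.74 against 19.6 and 19.2 (-1.20, adjusted p = 0.0464). For each of these genes both lines separated by arm. IL15, a cytokine, was low throughout, at 0.537 and 0.304 against 3.03 and 1.77 and at 2.57 and 1.45 against 5.77 and 4.92 (-1.17). MARCKS, a membrane-bound substrate of protein kinase C, stood at 7.83 and 3.66 against 14.8 and 15 and at 4.25 and 5.2 against 9.72 and 11.3 (-1.16). DPM3, a subunit of the dolichol-phosphate mannose synthase used in glycosylation, stood at 145 and 109 against 259 and 289 and at 80.3 and 81.6 against 174 and 156 (-1.06, adjusted p = 0.0256), but has no transcript of 600 nt or more.

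Other genes called lower encode membrane, adhesion and secreted proteins. ANK2, a membrane-skeleton adaptor, stood at 1.36 and 0.682 FPKM against 4.69 and 8.36 in ARP1 and at 1.24 and 1.8 against 4.13 and 6.81 in H929 (-1.60). CNTN1, a cell adhesion protein, stood at 7.61 and 9.27 against 27.3 and 17.8 and at 5.81 and 3.12 against 13.4 and 12.7 (-1.35). GABRB2, a GABA receptor subunit, stood at 2.08 and 1.66 against 6.57 and 5.26 and at 3.09 and 1.37 against 4.91 and 5.13 (-1.11). Each was without overlap in both lines, with adjusted p of 0.04, 0.0396 and 0.0451. SYT11 (-1.22) and NELL2 (-1.25) were called as well, and MAST1 was called at -1.10 but at -0.37 not called without transcripts under 600 nt. FAM84B was called at -1.14.

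Among noncoding genes with an official symbol, 1 of the 4 named as higher was called and all 4 named as lower were. Called genes took the places first and uncalled ones filled the rest, so these counts are not rates. SNHG26, a small nucleolar RNA host gene, stood at 55.6 and 46.4 FPKM against 33.6 and 26.3 in ARP1 and at 28.4 and 33.1 against 14.8 and 15.9 in H929 (0.86, adjusted p = 0.0396). MIR17HG, the host of the miR-17 cluster that MYC is known to raise, stood at 70.7 and 69.1 against 63.9 and 42 and at 42.4 and 52.4 against 27.7 and 27 and did not pass (0.59, adjusted p = 0.0799). Called lower beside DDIT4-AS1 were RN7SL417P (-2.31), a pseudogene of the signal recognition particle RNA whose reads its many copies may share, LINC00173 (-1.67) and LINC01055 (-1.44). FAM222A-AS1 (1.02, adjusted p = 0.0508) and ZRANB2-AS1 (0.61, adjusted p = 0.193) did not pass.

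ATF4 targets had mostly negative differences, which were larger between the CHEK1 libraries than between the controls. Of 30 tested, 29 had a negative difference and 10 were lower without overlap between the arms in both lines (10.6% of all genes were). DDIT4 was the 1 member called lower (0.678% of all tested genes were). The list's median difference was -0.68 (ARP1 -1.12, H929 -0.37). Between the controls it was -0.49 in ARP1 and 0.092 in H929, and between the CHEK1 libraries -1.76 and -0.68. CHAC1, which degrades glutathione, illustrates the pattern at 3.9 and 6.75 FPKM against 12.4 and 63.9 in ARP1, and at 3.21 and 2.66 against 3.59 and 19.8 in H929 (-1.79, adjusted p = 0.126). The knockdown library was the highest in both lines, and in H929 the control of the knockdown arm lay close to the overexpression arm. PHGDH, the first enzyme of serine synthesis, stood at 34.1 and 41.2 against 74.4 and 147 and at 36.7 and 33.1 against 44.1 and 79.1 (-1.10, adjusted p = 0.0761). SLC7A11, the cystine importer, differed by -1.34 (adjusted p = 0.0922) and SHMT2, the mitochondrial serine hydroxymethyltransferase, by -0.59 (adjusted p = 0.0866). ATF4 transcript itself differed by -0.26 (adjusted p = 0.564).

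Most ER chaperones had positive differences. Of 30 tested ER chaperone and ERAD (ER-associated degradation) genes, 21 had a positive difference (47.5% of all tested genes), 14 were higher and 2 lower without overlap (10.5% and 10.6% of all), and 4 were called higher (0.671% of all), HYOU1, CRELD2, DNAJB11 and PDIA3. The median was 0.26, and it was 0.33 between the controls and 0.29 between the CHEK1 libraries. HYOU1, an ER member of the HSP70 superfamily, stood at 112 and 110 FPKM against 60 and 75.1 in ARP1 and at 165 and 169 against 124 and 115 in H929 (0.60, adjusted p = 0.0451). CRELD2, an ER-stress-induced protein, stood at 46 and 35.5 against 24.9 and 23.4 and at 53.1 and 49.4 against 37.4 and 30.5 (0.65, adjusted p = 0.0456). Both genes separated the arms in each line. PDIA3, a disulfide isomerase, differed by 0.44 and DNAJB11, a co-chaperone of HSPA5, by 0.43. HSPA5, the main ER chaperone, stood at 179 and 180 against 114 and 85.7 and at 245 and 270 against 244 and 170 (0.59, adjusted p = 0.093). ERN1, the sensor IRE1, had the opposite sign at -0.73 (adjusted p = 0.315), with its highest level, 83.3 FPKM, in the ARP1 knockdown library. Without the ARP1 CHEK1 knockdown library 7 members were called, and without any 1 of the other libraries none was. Of 20 plasma cell genes 12 had a positive difference (median 0.085, a sign that changed in some settings, with -0.22 in ARP1 and 0.096 in H929), and 2 were higher and 3 lower at an unadjusted p under 0.05. FKBP11, a prolyl isomerase of the ER, was the 1 called, higher at 194 and 237 against 135 and 138 and at 123 and 118 against 83.3 and 84.6 (0.58, adjusted p = 0.0426). TNFRSF13B, the receptor TACI, stood at 1.05 and 0.633 against 6.25 and 3.49 and at 0.201 and 0.251 against 1.02 and 0.681, lower without overlap but not called (-1.12, adjusted p = 0.0765). JCHAIN, which joins IgA and IgM units, differed by 0.41 (adjusted p = 0.16) and CD28, a co-stimulatory receptor, by -0.40 (adjusted p = 0.182).

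Genes of inducible signalling had mostly negative differences. Of 23 immediate early genes, 17 had a negative difference (median -0.26), and KLF6 and JUN were called lower. Of all tested genes 52.5% were negative and 0.678% called lower. KLF6, a zinc-finger factor induced by growth signals, stood at 36.4 and 23.8 FPKM against 51.3 and 50.8 in ARP1 and at 31.9 and 32.7 against 59 and 56.9 in H929 (-0.80, adjusted p = 0.043). FOSB, an AP-1 partner of JUN, differed by -0.81 (adjusted p = 0.097), and the median of the list was -0.42 between the controls and -0.006 between the CHEK1 libraries. Of 20 NF-kB subunits and targets, 17 had a negative difference (median -0.25) and BCL3 was called lower. The NF-kB median was -0.05 between the controls, with 0.059 between those of ARP1, and -0.43 between the CHEK1 libraries. TNFAIP3, the feedback inhibitor A20, stood at 18.3 and 12 against 19.2 and 22.2 and at 20.9 and 13.5 against 47.2 and 35.8 (-0.85, adjusted p = 0.0862). CCL3, a chemokine of myeloma bone disease, differed by -0.84 (adjusted p = 0.0762). Of 29 genes of the type I interferon response 24 were negative (median -0.28, with -0.045 in ARP1 and -0.33 in H929). Limma called none of them (7 lower at an unadjusted p under 0.05). HLA-C, of 17 MHC class I genes of which 15 were negative (median -0.19, none called by limma, 1 higher and 7 lower at an unadjusted p under 0.05), differed by -0.50 (adjusted p = 0.0604). RFX5, a regulator of MHC class II genes, stood at 64.3 and 55.8 against 77.2 and 108 and at 50 and 36 against 74.6 and 73.3 (-0.70, adjusted p = 0.0572), in a list of 14 with 13 negative (median -0.31, none called by limma, 1 lower at an unadjusted p under 0.05). Of 11 glucocorticoid and retinoid targets 9 were negative (median -0.39, none called by limma, 6 lower at an unadjusted p under 0.05).

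Among the cell cycle lists, 1 of 35 DNA replication genes and 1 of 38 mitosis genes were called higher (0.671% of all tested genes were). Of 35 DNA replication genes 30 had a positive difference, and their median difference was 0.15 (ARP1 0.31, H929 0.021). CDC6, which loads the replicative helicase, was the only member called, at 48.7 and 44.6 FPKM against 24.9 and 25.4 in ARP1 and at 37.5 and 37.2 against 25.9 and 20.8 in H929 (0.76, adjusted p = 0.0396). It did not overlap between the arms in either line. Of 38 mitosis genes, BUB3, a spindle checkpoint protein, was called at 226 and 185 against 152 and 137 and at 200 and 198 against 149 and 141 (0.48, adjusted p = 0.0496), and the median was 0.051, with -0.18 between the controls and 0.26 between the CHEK1 libraries. Among 19 ATR-CHK1 pathway genes (median 0.18, none called by limma, 6 higher at an unadjusted p under 0.05), TIPIN, of the fork protection complex, had the largest difference at 29.9 and 32.7 against 16.1 and 9.65 and at 36.1 and 39.2 against 28.7 and 21 (0.93, adjusted p = 0.0622). Replication-dependent histones had a median of -0.17 (-0.025 between the controls, -0.28 between the CHEK1 libraries), with 16 of 18 negative and none called by limma (6 lower at an unadjusted p under 0.05).

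The medians of the heat shock (0.27), cholesterol synthesis and uptake (0.30) and proteasome lists (0.23) were positive. In these 3 lists limma called none, with 9, 12 and 6 genes higher and 1, 2 and 0 lower at an unadjusted p under 0.05, and their medians were 0.082, 0.11 and 0.039 between the controls against 0.65, 0.48 and 0.43 between the CHEK1 libraries. HSPA8, the constitutive HSP70, stood at 1040 and 1340 FPKM against 869 and 373 in ARP1 and at 1320 and 1480 against 1050 and 819 in H929 (0.82, adjusted p = 0.113), lowest in the knockdown library of each line. IDI1 of cholesterol synthesis differed by 0.46 (adjusted p = 0.0761) and PSMC3 of the proteasome by 0.55 (adjusted p = 0.0689). The 59 cytosolic ribosomal proteins had a median of 0.034, whose sign, like that of the mitosis list, changed in some settings. Limma called 2 of them higher, RPL38 and RPL37 as described above (0.671% of all tested genes were called higher). RPL9 lay just outside (0.49, adjusted p = 0.0505, and -0.033 without transcripts under 600 nt). Among circadian genes PER2 differed by 0.70 (adjusted p = 0.0595), and limma called none (4 higher and 3 lower at an unadjusted p under 0.05). FTL, the ferritin light chain in the NRF2 list, stood at 236 and 249 against 285 and 309 and at 438 and 422 against 911 and 827 (-0.65, adjusted p = 0.0688). Limma called no gene in the lists of NRF2 targets, nuclear-encoded oxidative phosphorylation, glycolysis and hypoxia, p53 targets, lysosome and autophagy, B cell genes, ABC transporters, metallothioneins, fatty acid synthesis, nucleic acid sensing, bone disease factors, or myeloma translocation genes. In these lists 6 to 36 genes were tested, and 0 to 6 passed an unadjusted p under 0.05 in a direction.

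**Figure D3:**
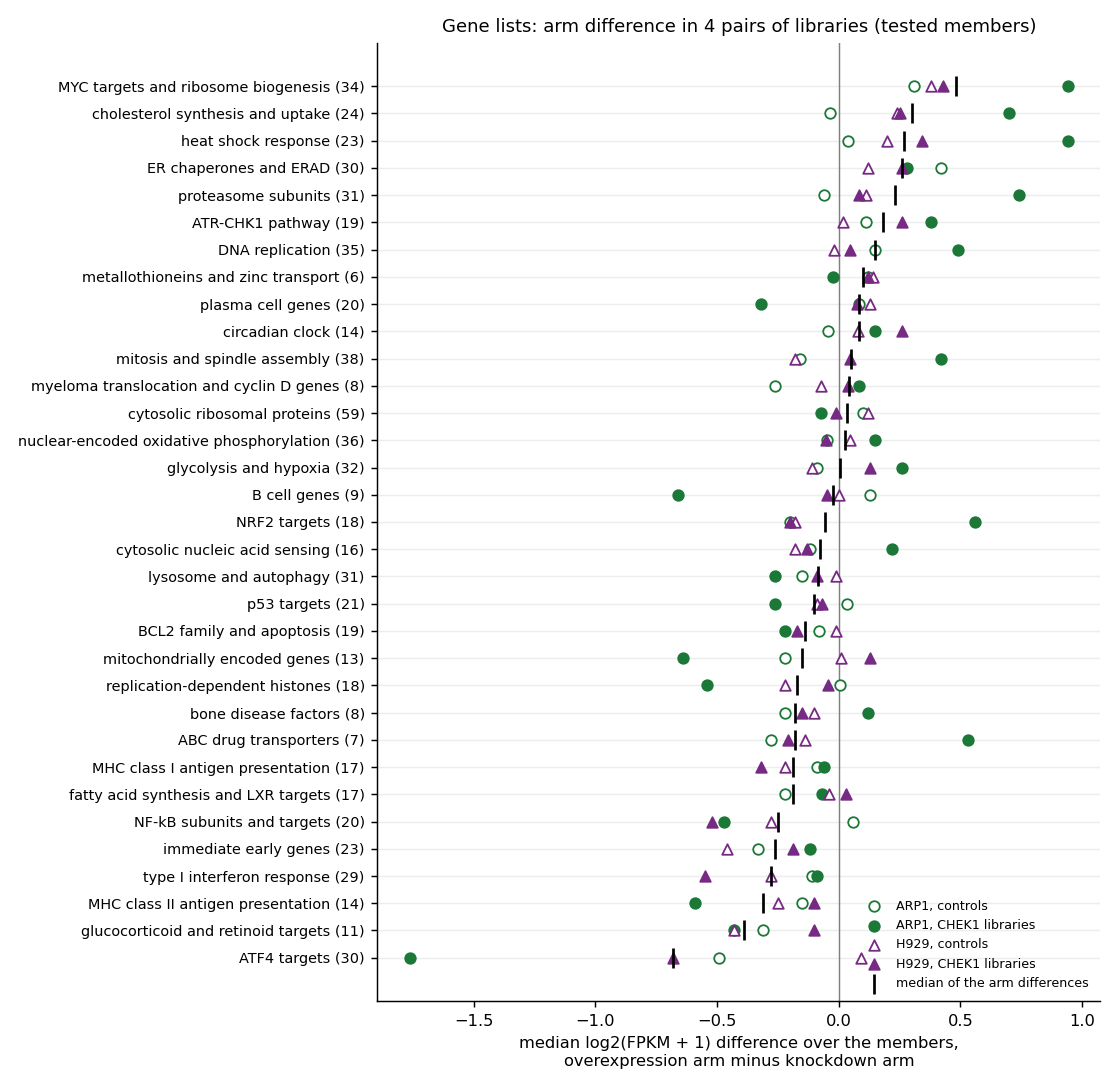
Median log2(FPKM + 1) difference (overexpression arm minus knockdown arm) of each gene list in 4 pairs of libraries, with the number of tested members in brackets and a vertical bar at the median of the arm differences. The ribosome list is positive in all 4 pairs (0.31 to 0.94), whereas the ATF4 list runs from 0.092 between the H929 controls to -1.76 between the ARP1 CHEK1 libraries.

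The arm difference itself was compared between the lines. Within ARP1 alone limma called 3 genes (0.0201%), 2 higher (0.0134%) and 1 lower (0.00671%), and within H929 none (0%), with 2676 and 1919 at an unadjusted p under 0.05. No gene passed the interaction of line by arm (0%; 961 at an unadjusted p under 0.05), but some levels were much further apart in 1 line than in the other, or apart in opposite directions. IFI27, an interferon-induced gene, stood at 6.77 and 1.41 FPKM in the H929 overexpression arm and at 74.1 and 72.4 in its knockdown arm, while ARP1 held 1.64 to 2.04 in all 4 libraries. TRIM2, a ubiquitin ligase, stood at 0.056 and 0.141 against 10.1 and 6.31 in H929 and at 0.0105 to 0.0435 in ARP1. RIPOR2 stood at 20.8 and 32.3 against 3.96 and 4.49 in H929 and at 25.3 and 30.6 against 16.9 and 18.1 in ARP1. In H929 both libraries of each arm lay apart from both of the other for these genes. In ARP1, LSP1, a leukocyte actin-binding protein, stood at 62.8 and 57.8 against 18.3 and 17.2, with 88.5 to 114 in H929. COX7B2 stood at 12.8 and 16.9 against 2.66 and 0.782 in ARP1, and ANXA1, an annexin, at 11 and 8.05 against 40.6 and 27.9. In H929 COX7B2 stood at 13.4 and 13.4 against 18 and 14.4, and ANXA1 separated the other way, at 29 and 57.1 against 25.2 and 17. The smallest adjusted p of the interaction among these genes was 0.256, for LSP1 and TRIM2.

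Some transcripts were present in 1 arm and near 0 in the other in both lines. With a level of at least 2 FPKM in all 4 libraries of an arm and under 0.1 in all 4 of the other, 10 transcripts belonged to the overexpression arm and 4 to the knockdown arm. Split by control and CHEK1 library instead, the same rule found 0 and 2. ANXA2-231, of 594 nt, stood at 46.9, 45.6, 30.9 and 18.5 FPKM in the overexpression arm and at most at 0.0265 in the knockdown arm. Its gene ANXA2, an annexin, was not called (0.37, adjusted p = 0.0968). SNRPA1-216, of 539 nt, went the other way, at 28.2, 22.6, 46.7 and 28.2 in the knockdown arm and near 0 in the overexpression arm. None of the genes of these one-arm transcripts was called. ACTB-205, of 568 nt and chosen after its values were seen, stood at 606, 267, 395 and 148 in the overexpression arm and at 4.18e-05, 2.52e-05, 2.2 and 9.88e-05 in the knockdown arm, while ACTB-201, of 1921 nt, stood at 1570, 1620, 1610 and 1880 against 2200, 1380, 2270 and 2060. With transcripts in place of genes, 205 of 36791 were called, 152 higher and 53 lower, and the share called fell with length, from 1.46% of those under 300 nt to 0.159% of the longest class.

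**Figure D4:**
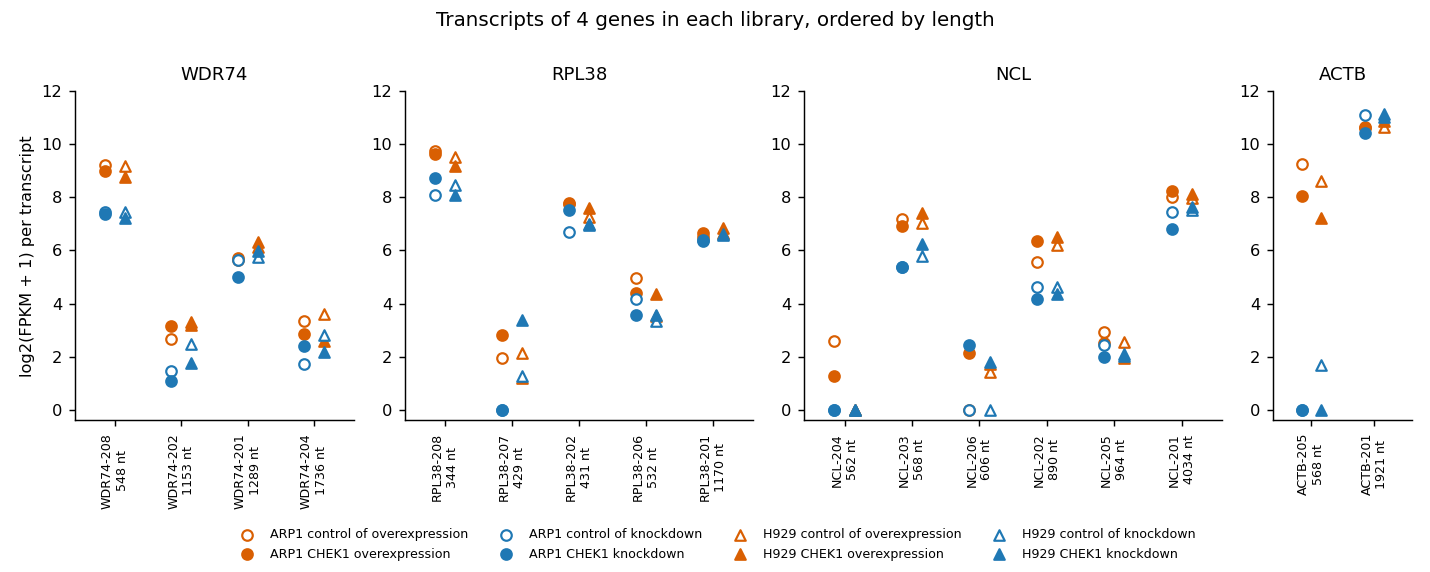
Log2(FPKM + 1) of the transcripts of WDR74, RPL38, NCL and ACTB in each library, ordered by length, with symbols as in the plot of levels by library. The arms separate at WDR74-208 (548 nt), RPL38-208 (344 nt) and ACTB-205 (568 nt). They lie closer together at WDR74-201, RPL38-201 and ACTB-201, and separate within each line at NCL-201 (4034 nt).

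Chromosome 10 stood apart from the other chromosomes. Its 450 tested coding genes had a median difference of 0.15 (ARP1 0.11, H929 0.16), and 322 of them (71.6%) were positive, against 48.6% of all tested coding genes. The other 22 chromosomes had medians from -0.075 to 0.055 and 37.4% to 58.4% of genes positive. Among genes with a mean of at least 5 FPKM, a limit chosen after the values were seen, 265 of 319 on chromosome 10 (83.1%) were positive, with a median of 0.20, against 53.2% of all such genes. The median was 0.10 between the ARP1 controls and 0.18 in each of the other 3 pairs, and over the alternative settings it lay between 0.13 and 0.20. When these genes of at least 5 FPKM were divided into 14 segments of 10 Mb, the medians lay between 0.088 and 0.55 and all were positive. The 8 genes at 50 to 60 Mb, which include TFAM, had the highest. In ARP1 alone the last segment was at -0.055.

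On this chromosome 12 genes were called higher and 3 lower (0.741% and 0.631% of all tested coding genes were), and 120 were higher and 15 lower without overlap in both lines (11.9% and 10.9% of all tested coding genes were). Those called higher included TFAM, NOLC1, BMS1, DDX21 and BUB3, described above, and TWNK, the mitochondrial DNA helicase (0.74), NOC3L, of the nucleolar NOC complex (0.68), CISD1, an outer mitochondrial membrane protein (0.57), SHLD2, of the shieldin complex of DNA repair (0.50), HNRNPF (0.48) and the histone chaperone DNAJC9 (0.47). The 3 called lower were DDIT4, KLF6 and DHTKD1. Both directions thus occurred on the chromosome, with the higher genes in excess. An excess in 1 direction was not particular to it. Chromosome 11 had 125 higher and 48 lower without overlap, while chromosome 1 had 83 and 185 and chromosome 19 had 57 and 124. COMMD3-BMI1, a read-through of neighbouring genes that the ranking left out, stood at 48.8 and 32.6 FPKM against 2.46 and 14 in ARP1 and at 36.5 and 36.8 against 2.65 and 1.24 in H929 (3.11, adjusted p = 0.0396). COMMD3 (-0.38) and BMI1 (-0.23) were not called, and how reads were shared among the 3 genes cannot be told apart. Chromosome copy number was not measured, and its part in these values was not tested.

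**Figure D5:**
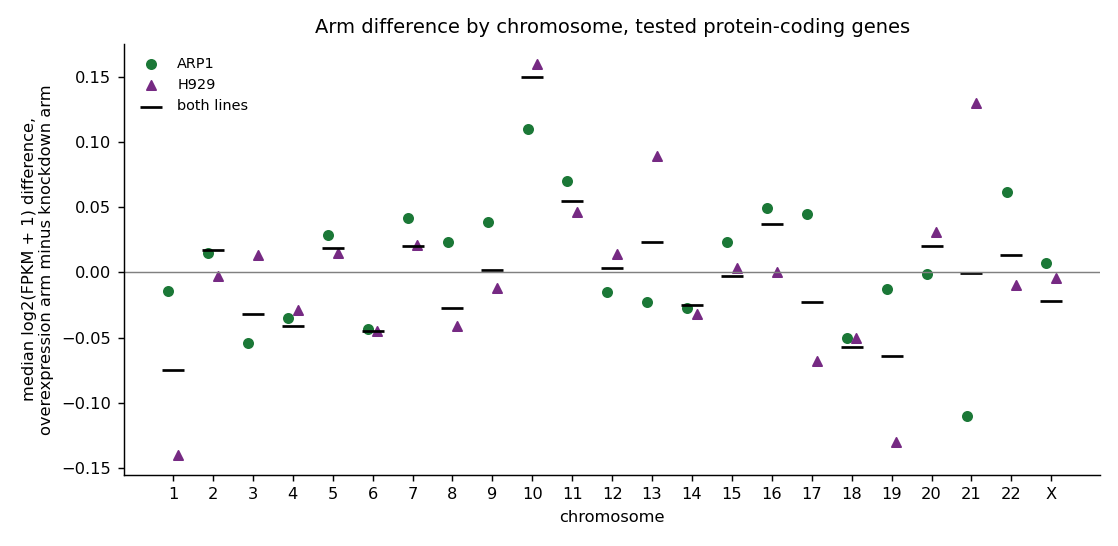
Median log2(FPKM + 1) difference (overexpression arm minus knockdown arm) of the tested coding genes of each chromosome, in ARP1 (circles), in H929 (triangles) and over both lines (bars). Chromosome 10 lies at 0.11, 0.16 and 0.15, against bars of -0.075 to 0.055 on the others, some of which differ more between the lines, such as chromosome 21 at -0.11 and 0.13.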

How the data were processed

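The 8 libraries were poly(A)-selected and sequenced as paired ends on a NovaSeq instrument, per the labels' protocols. The submitters' processing notes name HISAT2 2.0, StringTie 1.3.0 and Bowtie 0.12.2, and a mouse build, while the transcript identifiers are human, so the authors' genome build is unknown here. The authors deposited FPKM per transcript for each library. FPKM divides by length and by the library's total, so the share of a few genes can move all others, and short transcripts are estimated least well. Of 88209 transcripts, 87707 matched GENCODE 29 (GRCh38) and were summed to 24351 genes, and 502 were left out.

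From the deposited FPKM, log2(FPKM + 1) was computed for genes at 1 FPKM or more in at least 2 libraries. limma 3.58.1 in R 4.3.3 was fitted with trend and with terms for arm and line (5 residual degrees of freedom), and adjusted by Benjamini-Hochberg over all tested genes at 0.05. The line was the block: replicate 1 is ARP1 and replicate 2 is H929, so equal numbers share a cell line. Line by arm and each line's arm difference came from a fit of the 4 combinations, and the contrasts of the controls and of the CHEK1 libraries from a fit of 4 genotypes with line. Coding genes named are the first 15 per direction of those called, with an official symbol, a mean of at least 2 FPKM and no overlap in either line, ranked by the smaller of the lines' differences. Noncoding genes are the first 4 per direction by the same ranking, filled with genes without overlap that were not called where fewer were, and lists name up to 4 members, called ones before others by p. CHEK1 and the line by arm genes (4 smallest p per direction) complete the rule, and some genes it names are not reported here. Outside it, and chosen after their values were seen, are ODC1, FBL, CDK4, APEX1, BMS1, GAR1, DDX21, MAX, MXD3, CHAC1, ATF4, HSPA5, ERN1, ACTB and the other chromosome 10 genes. The fit was tested on simulated data. The comparison, the 33 gene lists and the tests were chosen with earlier results of these data known. Alternatives were other pseudocounts, filters, scalings, sets of libraries, fits and transcript lengths. Promoters came from RefSeq (GRCh38.p14).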

Additional observations from a re-analysis of the deposited data

Results flagged for a closer look

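In groups of 4 libraries, 4 of 78 groups over 39 named genes had 1 library far from the other 3 by Dixon's test. Chance gives this in about 1 of 20 groups drawn from a single normal population. These groups mix the lines and controls with CHEK1 libraries, so that rate need not hold here. MLEC was at 42.9 FPKM in ARP1 CHEK1 knockdown, against 50.8 to 52 in the rest of the knockdown arm. SRSF3 was at 88.1 in the same library, against 136 to 145. PTPRC was at 29.6 in the ARP1 control of knockdown, against 18.6 to 19.6. NOLC1 was at 185 in H929 CHEK1 overexpression, against 203 to 207. None of these libraries closed the gap between the arms.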

How the results depend on the processing

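The 201 genes called between the arms became 140 to 288 under another pseudocount, mean filter, scaling, robust moderation, coding genes alone, transcripts in place of genes, length weighting, removal of transcripts under 300 nt or an added 1.5-fold limit. The count was 2 with no filter on low values, 3 with no trend, 16 with genotype within the arm as a term, 9 between the 4 controls alone and 1 between the 4 CHEK1 libraries alone. Without transcripts under 600 nt, a setting chosen after seeing the data, it was 350, of which 156 were among the 201. The replicate number stands for the line, and without this block the count was 1. Leaving out 1 library gave 2 to 567 genes, and 197 of the 201 were among the 567 obtained without the ARP1 CHEK1 knockdown library; the lone sample left in a line and arm was assumed to vary like the others. The cause of these changes was not tested.

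Between the controls, the 8 called genes became 4 among coding genes alone and 3 without transcripts under 300 nt. Between the CHEK1 libraries, 0 became 2 and 3 in these settings and 1 when those 4 libraries were fitted alone. Line by arm gave 0 in each setting run. Of the named genes, 8 changed sign in some setting. Without transcripts under 600 nt these were NDUFC2 (-0.034), RPL9 (-0.033), RPL30 (0.22) and ABCG2 (0.053). Between the controls alone they were BCL6 (0.045), MYCN (0.16) and ABCC4 (-0.019), and between the CHEK1 libraries alone ANXA1 (0.0092). Over all named genes and settings, 3403 values stayed on their side of the threshold, 587 lost a call and 54 gained one. The scalings moved the median of all genes from -0.017 to between -0.011 and 0.014. FPKM carry no read depth, so the counting error of low genes is unknown.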

Other observations

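Families grouped by symbol were chosen after the values were seen, so their counts are descriptions and support nothing. Of all tested genes 47.5% had a positive difference and 0.671% were called higher. All 11 tested UTP genes, whose products process pre-ribosomal RNA, were positive (median 0.43), with UTP14A called. Of 8 NOP genes 6 were positive (median 0.48), with NOP14 and NOP56 called, and of 10 NOL genes 8 were positive (median 0.40), with NOL8 called. All 3 NOC genes were positive (median 0.32), with NOC3L called. Of 5 RNA polymerase I subunits 4 were positive (median 0.34), and of 16 RNA polymerase II subunits 14 (median 0.12).

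Among RNA-binding families, 19 of 21 HNRNP genes were positive (median 0.24), with HNRNPM, HNRNPDL and HNRNPF called, and 9 of 11 SRSF genes (median 0.29), with SRSF3 called. Of 12 SNRP genes of the spliceosome 11 were positive (median 0.28), with SNRPB2 and SNRPF called. Of 78 mitochondrial ribosomal protein genes 63 were positive (median 0.17), and MRPL51 alone was called. Their median was 0.05 between the controls alone and 0.31 between the CHEK1 libraries alone. Of 12 KLF factors 5 were positive (median -0.15), with KLF6 called lower. Of 12 protocadherins 3 were positive (median -0.19), with a sign that changed in some settings.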
